A study of Mus musculus with 12 samples.

Results

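The genes described here sense DNA damage or repair it. They are 31 of the 24478 gene symbols that were measured. They were taken by name from a fixed list, and each symbol is represented by the transcript that collected most reads in the 12 libraries together. RNA was sequenced from mouse thymic tissue in 12 libraries, 3 in each of 4 groups. T58A lymphomas were spontaneous thymic lymphomas labelled as T lymphocytes that express only ectopic MYC with the T58A substitution. S62A lymphomas were the same kind of tumour with only ectopic MYC carrying the S62A substitution. S62A splenomegaly tissue was thymic tissue of spontaneous splenomegaly, with a label of T and B lymphocytes, ectopic MYCS62A and endogenous MYC. Controls were thymic tissue whose label names T lymphocytes and endogenous MYC alone. Both substitutions put alanine in place of a residue whose phosphorylation sets how long the MYC protein lasts. The strain, age, sex and the promoter that drives ectopic MYC are not given in the labels used here. The labels also leave unstated whether each library is a different animal. The p-values therefore reflect only how the libraries at hand vary, and some of that variation may be technical.

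DNA breaks are detected by the MRE11, RAD50 and NBN proteins, which call up the kinase ATM, while stretches of single-stranded DNA at stalled forks call up ATR. ATM and ATR act through the checkpoint kinases CHK2 and CHK1, which hold the cell cycle while repair goes on. Homologous recombination trims break ends back and copies the lost sequence from the sister chromatid, the Fanconi proteins unhook crosslinks between the strands, and mismatch repair corrects copying errors. Thymocytes cut their own DNA to assemble T cell receptor genes and divide fast, so the thymus normally uses both the sensing and the repair proteins.

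The promoters of 4 genes are shown because their genes carry the results below: Parp1, the gene called higher in all 3 mutant groups, Blm and Chek1, which moved in opposite directions in the S62A groups, and Brca2, a recombination gene that fell in the splenomegaly tissue. The sequences are the 250 bases before the annotated start, 5′ to 3′ on the gene's strand, from RefSeq on GRCm38.p6. The windows lie at chr1:180568641-180568890 on the plus strand for Parp1 and chr7:80534999-80535248 on the minus strand for Blm. The others lie at chr9:36726659-36726908 on the minus strand for Chek1 and chr5:150522371-150522620 on the plus strand for Brca2. Capitals mark an E-box in Parp1, a pair of CCAAT boxes in Blm, 1 of them read on the other strand, and an E2F word in Brca2.
Parp1: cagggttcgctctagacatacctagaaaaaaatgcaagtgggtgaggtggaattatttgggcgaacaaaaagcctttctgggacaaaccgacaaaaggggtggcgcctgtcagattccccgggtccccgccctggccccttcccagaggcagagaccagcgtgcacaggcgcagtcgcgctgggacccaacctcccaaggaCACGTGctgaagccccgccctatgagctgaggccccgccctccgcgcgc
Blm: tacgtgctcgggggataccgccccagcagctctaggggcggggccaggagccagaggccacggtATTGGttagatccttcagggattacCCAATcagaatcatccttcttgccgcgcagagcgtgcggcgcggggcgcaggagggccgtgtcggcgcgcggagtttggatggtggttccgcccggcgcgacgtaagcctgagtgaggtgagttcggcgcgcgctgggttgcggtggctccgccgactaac
Chek1: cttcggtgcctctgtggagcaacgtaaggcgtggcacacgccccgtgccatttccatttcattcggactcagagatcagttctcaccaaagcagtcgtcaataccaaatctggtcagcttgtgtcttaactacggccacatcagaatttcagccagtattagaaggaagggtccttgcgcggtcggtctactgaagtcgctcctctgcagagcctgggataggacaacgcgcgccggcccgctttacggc
Brca2: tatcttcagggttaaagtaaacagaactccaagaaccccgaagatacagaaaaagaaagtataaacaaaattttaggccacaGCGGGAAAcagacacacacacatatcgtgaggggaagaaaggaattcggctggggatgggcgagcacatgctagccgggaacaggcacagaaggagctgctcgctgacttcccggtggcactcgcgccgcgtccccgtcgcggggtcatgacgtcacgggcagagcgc

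A total of 4 motifs was searched on both strands in the 25 members that have such a window. A member counted once if any window of its symbol held the motif, while the background counts each window. The shares of members and of windows are therefore not in the same unit. The E-box CACGTG, the letters MYC and MAX are known to bind, occurred in 1 of 25 members (4.0%), Parp1, 49 bases before its start, against 6.02% of all 32851 windows. An E2F word (TTTCCCGC, TTTGGCGC or TTCCCGCC, where TTTCCCGC and TTCCCGCC can overlap) occurred in 5 of 25 (20%), Bard1, Brca2, Fancg, Msh3 and Chek2, against 2.69% of all windows. CCAAT occurred in 11 of 25 (44.0%) against 33.8%, and TTTGAA, the core of the cell cycle genes homology region, in 1 of 25 (4.0%), Bard1, against 16%. The Chek1 window held none of these letters. A match describes the sequence and is not evidence of a bound factor.

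Depth ran from 9577373 to 22437969 reads over genes, and the libraries within each group varied beyond counting noise, with a chi-square per degree of freedom of 2.76 to 123. The 2.76 was that of controls 1 and 2, which had 46.6 and 43.4 against control 3. Every pair other than controls 1 and 2 had 19.8 or more. Myc had 134 to 159 CPM (counts scaled to library depth by TMM) in T58A lymphomas, 157 to 203 in S62A lymphomas, 84.2 to 99.98 in splenomegaly tissue and 79.9 to 85.5 in controls. Markers of the labelled cells showed a mixture in each group. The summed level of 8 B cell markers was 35.3 to 368 CPM in T58A lymphomas, 29.3 to 48.7 in S62A lymphomas, 1933 to 2604 in splenomegaly tissue and 74.1 to 79.4 in controls. For 8 markers of double-positive thymocytes the ranges were 3869 to 4511, 2624 to 4371, 308 to 335 and 9189 to 10519 CPM in the same order. Of these 8, Rag2 was down to 7 reads over the 3 splenomegaly libraries, while Cd4 had 245 to 274 CPM there, most of the sum. Pan T cell markers, 8 in number, summed to 1103 to 1382, 842 to 1512, 833 to 861 and 5267 to 5459.6 CPM in the same order. Thymic epithelium markers summed to 104 to 144, 14.9 to 35.3, 69.0 to 76.5 and 2251 to 2466 CPM in that order, highest in the controls, whose label names T lymphocytes alone. The titles carry a letter whose meaning is not given: H for T58A lymphomas, I for both S62A groups, and G, G and H for controls 1, 2 and 3.

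Per transcript length, the lowest level among the 31 genes was that of Brca2, which had the lowest FPKM (reads scaled to transcript length and library depth, as deposited by the authors) in all 12 libraries, with a median of 2.46 over the libraries. Parp1 had the highest FPKM in 9 libraries and Msh6 in the 3 controls. Parp1 had 138, 90.8 and 89.2 FPKM in T58A lymphomas, 124, 101 and 111 in S62A lymphomas, 84.0, 94.7 and 94.0 in splenomegaly tissue and 56.8, 56.2 and 56.7 in controls. Msh6 had 47.9, 41.7 and 32.8 FPKM in T58A lymphomas, 39.3, 44.2 and 81.3 in S62A lymphomas, 18.7, 25.2 and 25.8 in splenomegaly tissue and 72.5, 72.3 and 71.9 in controls. The order of these genes thus changed between the controls, where Msh6 led, and the mutant groups, where Parp1 led. By median FPKM of the group, splenomegaly tissue was lowest for 28 of 31 genes and S62A lymphomas highest for 18, controls for 9 and T58A lymphomas for 4. By mean TMM-scaled CPM, the measure used here between groups, splenomegaly tissue was lowest for 24 genes, controls for 4 and T58A lymphomas for 3. S62A lymphomas were highest for 21 on that measure.

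**Figure D1:**
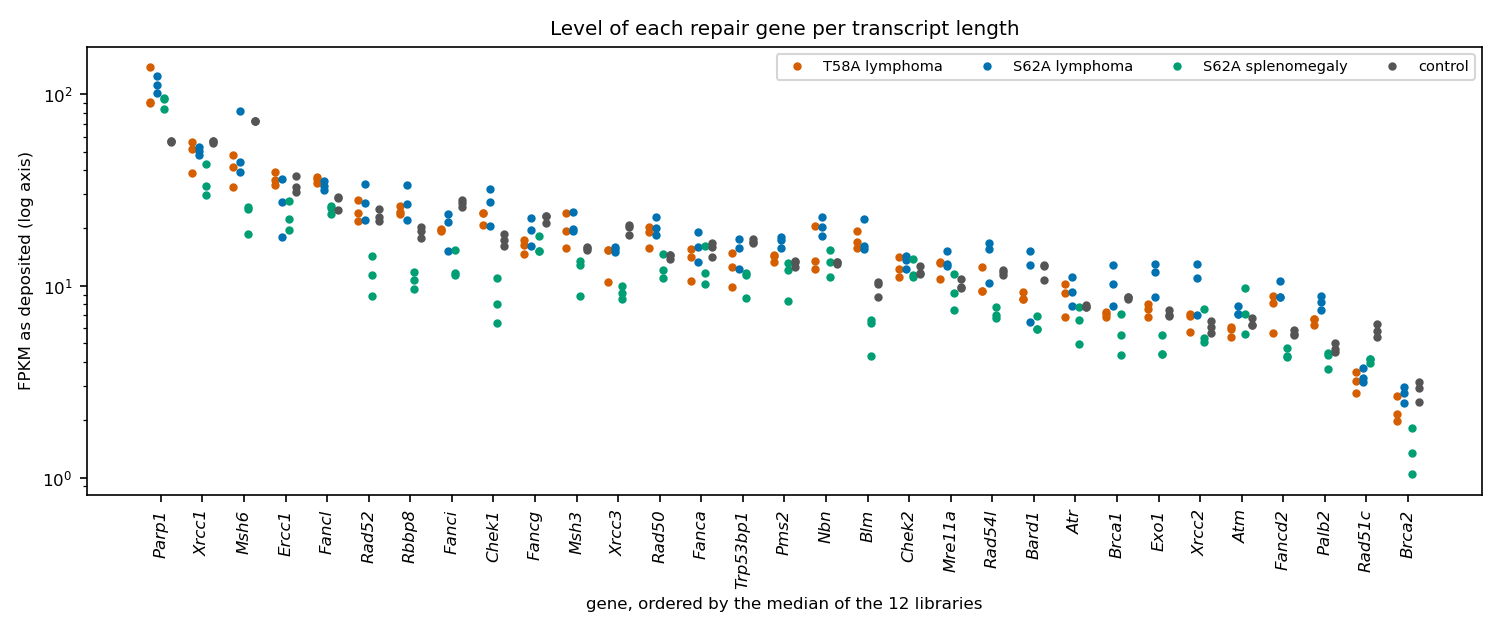
FPKM (log axis) of each of the 31 genes in each library, coloured by group, with genes ordered by their median over the 12 libraries. Brca2 lies at the low end in every library, Parp1 and Msh6 at the high end, and splenomegaly tissue has the lowest group median FPKM for 28 genes.

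Against controls, T58A lymphomas had 5 of the 31 genes higher and 4 lower, S62A lymphomas 14 higher and 1 lower, and splenomegaly tissue 1 higher and 13 lower. A call is an adjusted p under 0.05 in edgeR's quasi-likelihood test, and all 31 genes passed the filter on low counts. These counts stand against a background in which 36.2% of the 15606 genes tested were called in T58A lymphomas (18.8% higher, 17.4% lower), 44.1% in S62A lymphomas (21.9% higher, 22.2% lower) and 49.2% in splenomegaly tissue (22.9% higher, 26.3% lower). For T58A lymphomas and splenomegaly tissue the share of members called in either direction is no larger than that background. For S62A lymphomas that share is near it. The S62A lymphomas and splenomegaly tissue depart from the background in the split by direction. Counting instead the genes whose libraries did not overlap those of the controls, 10 were higher and 8 lower in T58A lymphomas, against 28.8% and 31.2% of all genes tested (60% in either direction). There were 17 higher and 3 lower in S62A lymphomas, against 28% and 32.3% (60.3%), and 1 higher and 19 lower in splenomegaly tissue, against 32% and 38.5% (70.5%). The median log2 fold change of the members was 0.11 for T58A lymphomas, 0.36 for S62A lymphomas and −0.42 for splenomegaly tissue, beside 0.01, 0.00 and −0.08 over all genes tested. The T58A median was −0.005 without T58A lymphoma 1, 0.07 without control 1 and 0.16 without T58A lymphoma 2. The 3 comparisons share their control libraries, so their calls are not independent of each other. In bulk tissue, fewer cells of a type and less RNA per cell cannot be told apart. Leaving out a library lowered the share of all genes called in each of these 3 comparisons. The number of members called in either direction fell or stayed the same, though the count in 1 direction could rise. Without control 3 the S62A lymphomas had 9 members higher and 0 lower, with 15.8% of all genes higher and 17.3% lower. At an unadjusted p under 0.05 there were 14 members in that fit. Without splenomegaly library 1 the splenomegaly tissue had 2 members higher and 7 lower, with 20.4% and 21.8% of all genes. Without any 1 of the controls the T58A lymphomas had 2 members higher and 1 lower, with 12.4% to 13.1% of all genes higher and 11.9% to 12.5% lower. Without T58A lymphoma 1 they had 2 members higher and 4 lower (15.6% and 14.1% of all genes), without T58A lymphoma 2 they had 5 and 1 (16.2% and 15.9%), and without T58A lymphoma 3 they had 4 and 2 (16% and 13.8%). Calls in S62A groups against controls cannot be told apart from the title letter, which no control shares with them.

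**Figure D2:**
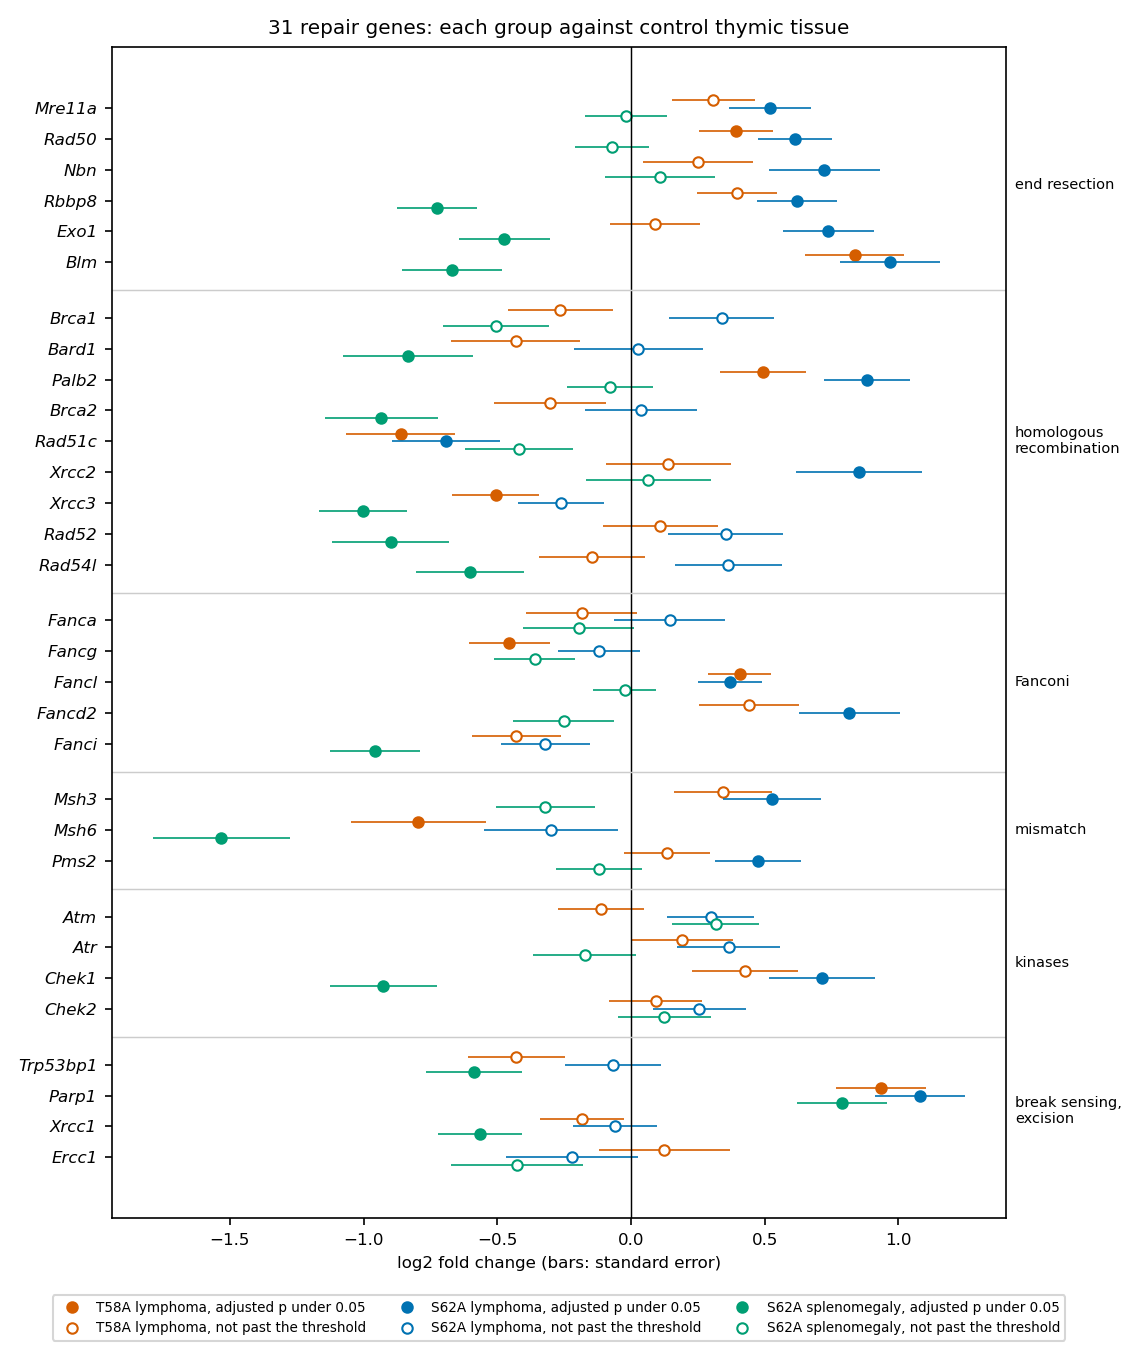
Log2 fold change against control (x axis, bars: standard error) for each of the 31 genes, in T58A lymphomas, S62A lymphomas and splenomegaly tissue. Filled points are genes past the adjusted p threshold of 0.05: 9 for T58A lymphomas, 15 for S62A lymphomas and 14 for splenomegaly tissue, where 13 of the filled points lie left of 0.

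Genes that open and trim break ends rose in S62A lymphomas without exception among the 6 listed, beside 21.9% of all genes called higher. In splenomegaly tissue 3 of them fell, beside 26.3% of all genes called lower. Blm, a helicase that unwinds the ends and dissolves recombination intermediates, had 62.8, 66.3 and 75.1 CPM in T58A lymphomas, 67.7, 91.7 and 64.3 in S62A lymphomas, 18.3, 25.9 and 27.9 in splenomegaly tissue and 39.5, 40.4 and 34.4 in controls. Every lymphoma of either mutant was above every control, and every splenomegaly library was below. The log2 fold change against control was 0.84 ± 0.19 (SE) in T58A lymphomas (adjusted p = 0.00529), 0.97 ± 0.19 in S62A lymphomas (adjusted p = 0.00186) and −0.67 ± 0.19 in splenomegaly tissue (adjusted p = 0.0121). Without splenomegaly library 1 the fall of Blm no longer passed the threshold.

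Rbbp8, which encodes CtIP, the factor that starts the trimming with the MRE11 complex, had 68.2, 73.6 and 68.4 CPM in T58A lymphomas, 66.4, 79.0 and 100.02 in S62A lymphomas, 29.4, 31.2 and 35.8 in splenomegaly tissue and 55.9, 53.5 and 50.1 in controls. Its groups did not overlap, apart from T58A and S62A lymphomas with each other. It rose by 0.62 ± 0.15 in S62A lymphomas (adjusted p = 0.00654) and differed by −0.73 ± 0.15 in splenomegaly tissue (adjusted p = 0.00234), while the value in T58A lymphomas, 0.40 ± 0.15, did not pass (adjusted p = 0.0572). Exo1, an exonuclease that extends the trimming, had 39.1, 33.0 and 35.8 CPM in T58A lymphomas, 44.2, 65.3 and 59.8 in S62A lymphomas, 22.8, 21.8 and 28.5 in splenomegaly tissue and 35.1, 32.6 and 33.7 in controls. T58A lymphomas and controls overlapped for Exo1, and the other groups stood apart from them on either side. The fold changes against control were 0.74 ± 0.17 in S62A lymphomas (adjusted p = 0.005) and −0.47 ± 0.17 in splenomegaly tissue (adjusted p = 0.037). The second of these was lost without splenomegaly library 1 or 2, without any 1 of the controls, with RLE (DESeq2's) size factors in place of TMM, and with no filter on low counts.

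The 3 genes of the complex that binds broken ends were called higher in S62A lymphomas, and none was called lower against control. Rad50 averaged 75.5 ± 10.2 CPM in T58A lymphomas, 87.9 ± 10.2 in S62A lymphomas, 54.7 ± 6.82 in splenomegaly tissue and 57.4 ± 1.21 in controls (SD, n = 3 each). Its rise was 0.39 ± 0.14 in T58A lymphomas (adjusted p = 0.0446) and 0.61 ± 0.14 in S62A lymphomas (adjusted p = 0.0047), and the T58A call was lost without T58A lymphoma 1 or 3 or any 1 of the controls, under RLE or library size scaling, and with no filter. Mre11a, the nuclease, rose by 0.52 ± 0.15 in S62A lymphomas (adjusted p = 0.0182) and Nbn, the subunit that recruits ATM, by 0.72 ± 0.21 (adjusted p = 0.0156). The Mre11a call was lost without S62A lymphoma 2, control 1 or control 3 and under library size scaling, and the Nbn call without control 2. In splenomegaly tissue the values of the 3 genes were −0.02 ± 0.15, −0.07 ± 0.14 and 0.11 ± 0.21 for Mre11a, Rad50 and Nbn, none of them past the threshold.

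**Figure D3:**
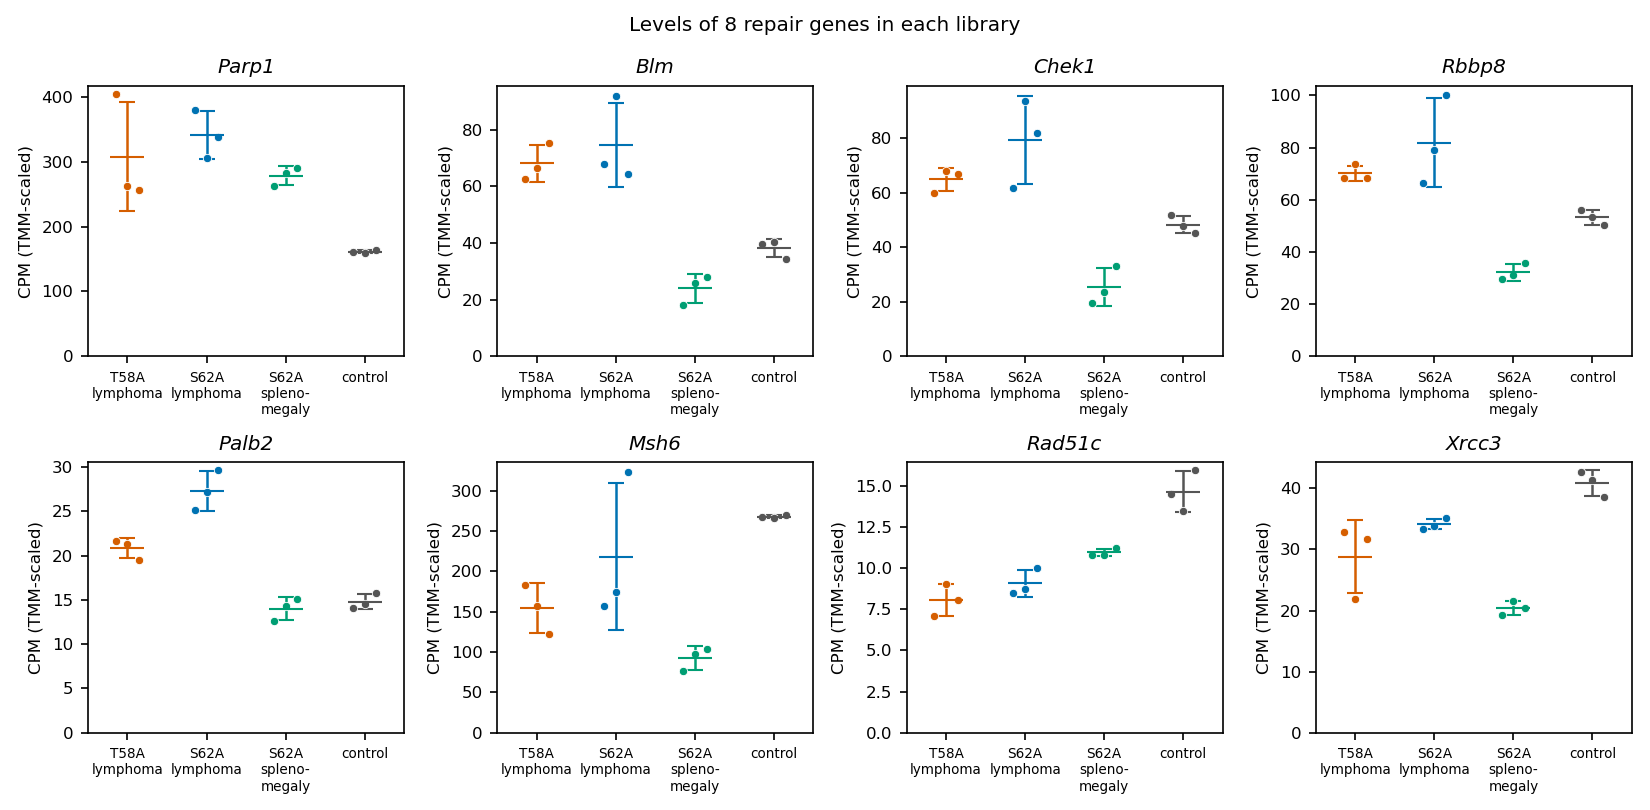
TMM-scaled CPM of 8 genes in each library, by group, with the mean (line) and SD (bar) of 3 libraries. Parp1 lies above the controls in all mutant groups, Blm, Chek1 and Rbbp8 lie above the controls in both lymphomas and below them in splenomegaly tissue, and Msh6 has 1 S62A lymphoma at 323 CPM, above the controls.

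Recombination genes were called in both directions, gene by gene. Of 9 listed, T58A lymphomas had 1 higher and 2 lower, S62A lymphomas 2 higher and 1 lower, and splenomegaly tissue 0 higher and 5 lower. For both lymphomas the share called is below that of all genes, 36.2% in T58A and 44.1% in S62A lymphomas. In splenomegaly tissue 26.3% of all genes were called lower. Palb2, the bridge between the BRCA1 and BRCA2 proteins, had 21.6, 21.4 and 19.6 CPM in T58A lymphomas, 25.2, 27.2 and 29.7 in S62A lymphomas, 12.6, 14.3 and 15.2 in splenomegaly tissue and 14.1, 14.5 and 15.8 in controls. The 3 levels of the S62A lymphomas were above every other library, those of the T58A lymphomas came next, and splenomegaly tissue overlapped the controls. The rise was 0.49 ± 0.16 in T58A lymphomas (adjusted p = 0.0323) and 0.88 ± 0.16 in S62A lymphomas (adjusted p = 0.00135). The T58A call was lost without T58A lymphoma 1 or 2 or any 1 of the controls and with no filter, and the transcripts of Palb2 differ in their reads, the smallest total being 0.624 of the largest.

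Xrcc2, which assists recombination at breaks, rose in S62A lymphomas as well, with 32.6 ± 9.50 CPM in S62A lymphomas against 18.1 ± 1.17 in controls (SD, n = 3 each), a log2 fold change of 0.85 ± 0.23 (adjusted p = 0.013). Rad51c, which also assists recombination, went the other way, with 7.10, 9.05 and 8.05 CPM in T58A lymphomas, 8.46, 8.77 and 10.002 in S62A lymphomas, 10.8, 10.8 and 11.2 in splenomegaly tissue and 14.5, 13.5 and 15.98 in controls. All 9 mutant libraries were below all 3 controls. It fell by 0.86 ± 0.20 on the log2 scale in T58A lymphomas (adjusted p = 0.0075) and by 0.69 ± 0.20 in S62A lymphomas (adjusted p = 0.0176), and the value in splenomegaly tissue, −0.42 ± 0.20, did not pass (adjusted p = 0.106). The S62A call was lost without control 1 or control 3. Xrcc3, which works with the Rad51c protein, had 32.8, 21.9 and 31.8 CPM in T58A lymphomas, 33.4, 33.9 and 35.1 in S62A lymphomas, 19.3, 21.6 and 20.5 in splenomegaly tissue and 42.7, 41.4 and 38.6 in controls. The 3 controls were above the other 9 libraries and the splenomegaly libraries below them. Its fold change was −0.51 ± 0.16 in T58A lymphomas (adjusted p = 0.0313), a call lost without T58A lymphoma 2 or any 1 of the controls and in the fit on these 2 groups alone, and −1.001 ± 0.16 in splenomegaly tissue (adjusted p = 0.000549).

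The remaining recombination genes passed the threshold against control in splenomegaly tissue or, for Brca1, in no group. Brca2, a mediator of strand exchange, averaged 14.4 ± 3.67 CPM in splenomegaly tissue and 27.5 ± 3.09 in controls (SD, n = 3 each), a difference of −0.93 ± 0.21 (adjusted p = 0.00403). Rad52, which anneals strands, averaged 15.0 ± 3.57 CPM there and 27.9 ± 2.32 in controls, a difference of −0.90 ± 0.22 (adjusted p = 0.00585). Bard1, the partner of BRCA1, and Rad54l, a motor that remodels the duplex during strand exchange, differed by −0.83 ± 0.24 (adjusted p = 0.015) and −0.60 ± 0.20 (adjusted p = 0.028). The Bard1 call was lost without splenomegaly library 1 or 2, and the Rad54l call without any 1 of the splenomegaly libraries or of the controls. Brca1 had values of −0.26 ± 0.20, 0.34 ± 0.20 and −0.51 ± 0.20 in T58A lymphomas, S62A lymphomas and splenomegaly tissue, none past the threshold (adjusted p = 0.318, 0.184 and 0.0531). Every T58A lymphoma and every splenomegaly library was below every control for both Brca1 and Bard1.

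Among 5 Fanconi genes, T58A lymphomas had 1 higher and 1 lower, S62A lymphomas 2 higher and splenomegaly tissue 1 lower. The shares of all genes called in either direction were 36.2%, 44.1% and 49.2% in that order. Fancl, the ubiquitin ligase of the Fanconi core complex, had 46.5, 42.2 and 44.3 CPM in T58A lymphomas, 41.5, 45.3 and 43.0 in S62A lymphomas, 34.8, 32.5 and 31.4 in splenomegaly tissue and 35.2, 34.7 and 30.4 in controls. Both lymphomas were above every control and every splenomegaly library. The fold changes were 0.41 ± 0.12 (adjusted p = 0.0208) and 0.37 ± 0.12 (adjusted p = 0.0261), and both calls were lost without any 1 of the controls, the T58A call also without T58A lymphoma 1, and the S62A call without S62A lymphoma 2, under library size scaling and with no filter. Fancd2 and Fanci encode the pair of proteins that this ligase modifies, and they were called in different groups. Fancd2 had 27.7, 17.5 and 24.97 CPM in T58A lymphomas, 28.6, 34.1 and 28.3 in S62A lymphomas, 14.3, 15.0 and 14.0 in splenomegaly tissue and 16.98, 17.7 and 16.9 in controls, a rise of 0.82 ± 0.19 in S62A lymphomas (adjusted p = 0.00539). Fanci had 63.0, 60.9 and 61.0 CPM in T58A lymphomas, 50.8, 70.6 and 77.9 in S62A lymphomas, 38.4, 38.0 and 51.8 in splenomegaly tissue and 83.4, 85.5 and 80.1 in controls, with every mutant library below every control. It differed by −0.96 ± 0.17 in splenomegaly tissue (adjusted p = 0.000833), with −0.43 ± 0.17 in T58A lymphomas (adjusted p = 0.0643) and −0.32 ± 0.17 in S62A lymphomas (adjusted p = 0.138), neither past the threshold.

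Fancg, a core complex subunit, had 35.5, 31.4 and 36.9 CPM in T58A lymphomas, 44.3, 36.1 and 50.7 in S62A lymphomas, 35.3, 33.8 and 41.8 in splenomegaly tissue and 44.5, 48.6 and 49.2 in controls. T58A lymphomas and splenomegaly tissue were below all controls, and 1 S62A lymphoma was above them. It fell by 0.45 ± 0.15 in T58A lymphomas (adjusted p = 0.0366), a call lost on leaving out any 1 T58A lymphoma or any 1 control. Fanca, another subunit of the core complex, had values of −0.18 ± 0.21, 0.15 ± 0.21 and −0.20 ± 0.21 in T58A lymphomas, S62A lymphomas and splenomegaly tissue, none past the threshold.

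Mismatch repair genes were called in both directions too. Of 3 listed, T58A lymphomas had 1 lower, S62A lymphomas 2 higher and splenomegaly tissue 1 lower. The shares of all genes called in either direction were 36.2%, 44.1% and 49.2% in that order. Msh6, which recognises single mismatches, had 184, 157 and 122 CPM in T58A lymphomas, 157, 174 and 323 in S62A lymphomas, 76.0, 97.9 and 104 in splenomegaly tissue and 268, 267 and 269.8 in controls. The controls lay close to each other, T58A lymphomas and splenomegaly tissue lay below them, and S62A lymphomas lay on both sides. It fell by 0.80 ± 0.25 in T58A lymphomas (adjusted p = 0.0292), a call lost without T58A lymphoma 2 or 3 or any 1 of the controls, and by 1.53 ± 0.26 in splenomegaly tissue (adjusted p = 0.000613), and the value in S62A lymphomas was −0.30 ± 0.25 (adjusted p = 0.357).

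Pms2, the nuclease subunit that acts after recognition, had 38.3, 37.2 and 34.5 CPM in T58A lymphomas, 47.8, 42.5 and 49.0 in S62A lymphomas, 23.5, 32.5 and 36.4 in splenomegaly tissue and 34.1, 33.7 and 32.4 in controls. All S62A lymphomas were above all other libraries. The rise was 0.48 ± 0.16 (adjusted p = 0.0325), and that of Msh3, which recognises small loops, was 0.53 ± 0.18 (adjusted p = 0.0366). Both calls were lost without any 1 of the controls, without S62A lymphoma 1 or under library size scaling, and the Pms2 call also without S62A lymphoma 3.

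Of 4 kinases, Chek1 alone was called against control, in S62A lymphomas and in splenomegaly tissue. The shares of all genes called in either direction were 44.1% and 49.2% there, and 36.2% in T58A lymphomas. Chek1 encodes CHK1, the kinase that acts after ATR, and had 59.8, 67.9 and 66.7 CPM in T58A lymphomas, 61.9, 93.8 and 81.8 in S62A lymphomas, 19.6, 23.4 and 33.1 in splenomegaly tissue and 51.7, 47.7 and 45.3 in controls. Both lymphomas lay above the controls and the splenomegaly libraries below. The log2 fold change was 0.71 ± 0.20 in S62A lymphomas (adjusted p = 0.0135), a call lost without S62A lymphoma 2 or control 3, and −0.93 ± 0.20 in splenomegaly tissue (adjusted p = 0.003), while 0.43 ± 0.20 in T58A lymphomas did not pass (adjusted p = 0.114). Atm, the kinase for double-strand breaks, had values of −0.11 ± 0.16, 0.30 ± 0.16 and 0.32 ± 0.16 in T58A lymphomas, S62A lymphomas and splenomegaly tissue. Atr, the kinase for stalled forks, had 0.19 ± 0.19, 0.37 ± 0.19 and −0.17 ± 0.19, and Chek2, the kinase after ATM, had 0.09 ± 0.17, 0.26 ± 0.17 and 0.12 ± 0.17 in the same order. The lowest adjusted p of these 9 values was 0.126, that of Atm in splenomegaly tissue.

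Parp1, which senses single-strand breaks and marks them with chains of ADP-ribose, was the 1 gene of the 31 called higher in all 3 mutant groups. It had 405, 263 and 256 CPM in T58A lymphomas, 380.3, 306 and 338 in S62A lymphomas, 262, 283 and 291 in splenomegaly tissue and 161, 159 and 164 in controls. All 9 mutant libraries were above all 3 controls, which differed little among themselves, and T58A lymphoma 1 was the highest of all. The fold was 1.91 in T58A lymphomas (log2 0.93 ± 0.17, adjusted p = 0.00164), 2.12 in S62A lymphomas (log2 1.08 ± 0.17, adjusted p = 0.000526) and 1.73 in splenomegaly tissue (log2 0.79 ± 0.17, adjusted p = 0.00268). Its promoter is the one above with the E-box.

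Xrcc1, the scaffold that PARP1 brings to single-strand breaks, had 58.8, 83.7 and 75.9 CPM in T58A lymphomas, 76.4, 82.7 and 79.2 in S62A lymphomas, 48.0, 51.1 and 68.6 in splenomegaly tissue and 82.6, 82.8 and 82.8 in controls. The splenomegaly libraries were below the controls, by −0.56 ± 0.16 on the log2 scale (adjusted p = 0.012), a call lost without splenomegaly library 1. Trp53bp1, which encodes 53BP1 and shields break ends from trimming, differed by −0.59 ± 0.18 there (adjusted p = 0.0191), a call lost without splenomegaly library 1 or control 2. Ercc1, a subunit of the nuclease that cuts beside bulky lesions, had values of 0.13 ± 0.25, −0.22 ± 0.25 and −0.43 ± 0.25 in T58A lymphomas, S62A lymphomas and splenomegaly tissue, none past the threshold.

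The 2 lymphoma types were compared directly, which asks how the mutants differ within 1 kind of tumour. No member passed the threshold in edgeR's quasi-likelihood test, where 3.15% of all genes did (0.859% higher and 2.29% lower in S62A lymphomas). That background was 0% in the fit on these 2 groups alone, where 14.5% of all genes and 4 members had an unadjusted p under 0.05, and 11.2% with DESeq2. At an unadjusted p under 0.05 there were 8 members of 31, where 23.4% of all genes stood there. DESeq2 called 2 members, Exo1 and Xrcc2, both higher in S62A lymphomas, where it called 3.95% of all genes higher and 7.29% lower. The libraries did not overlap for 9 members, all higher in S62A lymphomas, against 10% of all genes higher and 11% lower (21.1% in either direction). S62A lymphomas had the higher fitted level for 29 of the 31, beside 48.9% of all genes, the exceptions being Fancl and Ercc1. The median log2 difference was 0.29, beside −0.01 over all genes. The lowest adjusted p was that of Exo1, 0.0607, with 56.4 ± 10.9 CPM in S62A lymphomas and 36.0 ± 3.06 in T58A lymphomas (SD, n = 3 each) and a log2 difference of 0.65 ± 0.17. Xrcc2 had the largest difference, 0.71 ± 0.23 (adjusted p = 0.108), and Brca1 stood at 0.60 ± 0.20 (adjusted p = 0.108). Without S62A lymphoma 1 the test called 3 members higher, Exo1, Bard1 and Xrcc2, with 0.874% of all genes higher, and without T58A lymphoma 1 it called Nbn, with 1.32%. Of 25 proliferation genes, 22 also had the higher fitted level in S62A lymphomas, with a median log2 difference of 0.18. Of 91 other repair genes 70 did, with a median of 0.21. The title letter I of the S62A lymphomas and H of the T58A lymphomas cannot be told apart from the mutant.

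Single libraries of both lymphoma groups differed from the others. T58A lymphoma 1 had the highest of the 3 levels for 21 of 31 genes, with a summed level of 1916 CPM against 1612 and 1670 in T58A lymphomas 2 and 3, and T58A lymphoma 2 had the lowest for 17. S62A lymphoma 1 had 33.7 CPM of Bard1, against 77.4 and 66.2 in the other S62A lymphomas, and 46.6 CPM of Brca1, against 59.8 and 75.7. That library had the lowest of the 3 levels for 14 of 31 genes and the highest for 7, among them Rad50 and Atr. The summed CPM of 25 proliferation genes was 4829 in S62A lymphoma 1, against 7021 and 7027 in the other S62A lymphomas, and 4977, 5267 and 5036 in T58A lymphomas 1, 2 and 3. The part of proliferation in these levels was not tested.

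Splenomegaly tissue and S62A lymphomas share the S62A mutant and the title letter I. Their labels differ in the cells and in endogenous MYC, which is named for splenomegaly tissue only. Myc differed by −0.91 ± 0.13 in splenomegaly tissue against S62A lymphomas (adjusted p = 0.000172). The parts of these differences in the calls cannot be told apart. Between the groups, 24 of the 31 genes were lower in splenomegaly tissue and 0 higher. The background was 54.3% of all genes called (25.6% higher, 28.6% lower). At an unadjusted p under 0.05 there were again 24 members, against 60% of all genes. DESeq2 called 23 members lower and 0 higher, against 27.6% and 29.1% of all genes. The libraries did not overlap for 1 member that was higher in splenomegaly tissue, Rad51c, and 22 that were lower, against 27.9% and 30.2% of all genes (58.1%). The median log2 difference was −0.69, beside −0.07 over all genes. By role, 6 of 6 end resection genes were lower, 8 of 9 recombination genes, 3 of 5 Fanconi genes, 3 of 3 mismatch genes, 2 of 4 kinases and 2 of the 4 others. The 24 became 15 when the test was fitted on the libraries of these 2 groups alone, where 22.6% of all genes were called lower. The calls lost there were those of Mre11a, Bard1, Xrcc2, Fancl, Fanci, Pms2, Atr, Trp53bp1 and Xrcc1.

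The largest differences were those of Chek1, −1.64 ± 0.20 (adjusted p = 7.72e-05), and Blm, −1.64 ± 0.19 (adjusted p = 5.08e-05). Rbbp8 differed by −1.35 ± 0.15 (adjusted p = 4.41e-05), Rad52 by −1.25 ± 0.22 (adjusted p = 0.000716) and Msh6 by −1.24 ± 0.25 (adjusted p = 0.00189). Palb2 and Fancd2, which did not pass the threshold between splenomegaly tissue and controls, differed between splenomegaly tissue and S62A lymphomas by −0.96 ± 0.16 (adjusted p = 0.000523) and −1.07 ± 0.19 (adjusted p = 0.00078). The 7 genes not called were Rad51c, Fanca, Fancg, Atm, Chek2, Parp1 and Ercc1, with values from −0.34 ± 0.21 for Fanca to 0.27 ± 0.20 for Rad51c. For Parp1 the difference of −0.29 ± 0.17 did not pass (adjusted p = 0.158), so its level was not shown to differ between the 2 S62A groups. Fanca, Atm, Chek2 and Ercc1 were called in none of the 5 comparisons.

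**Figure D4:**
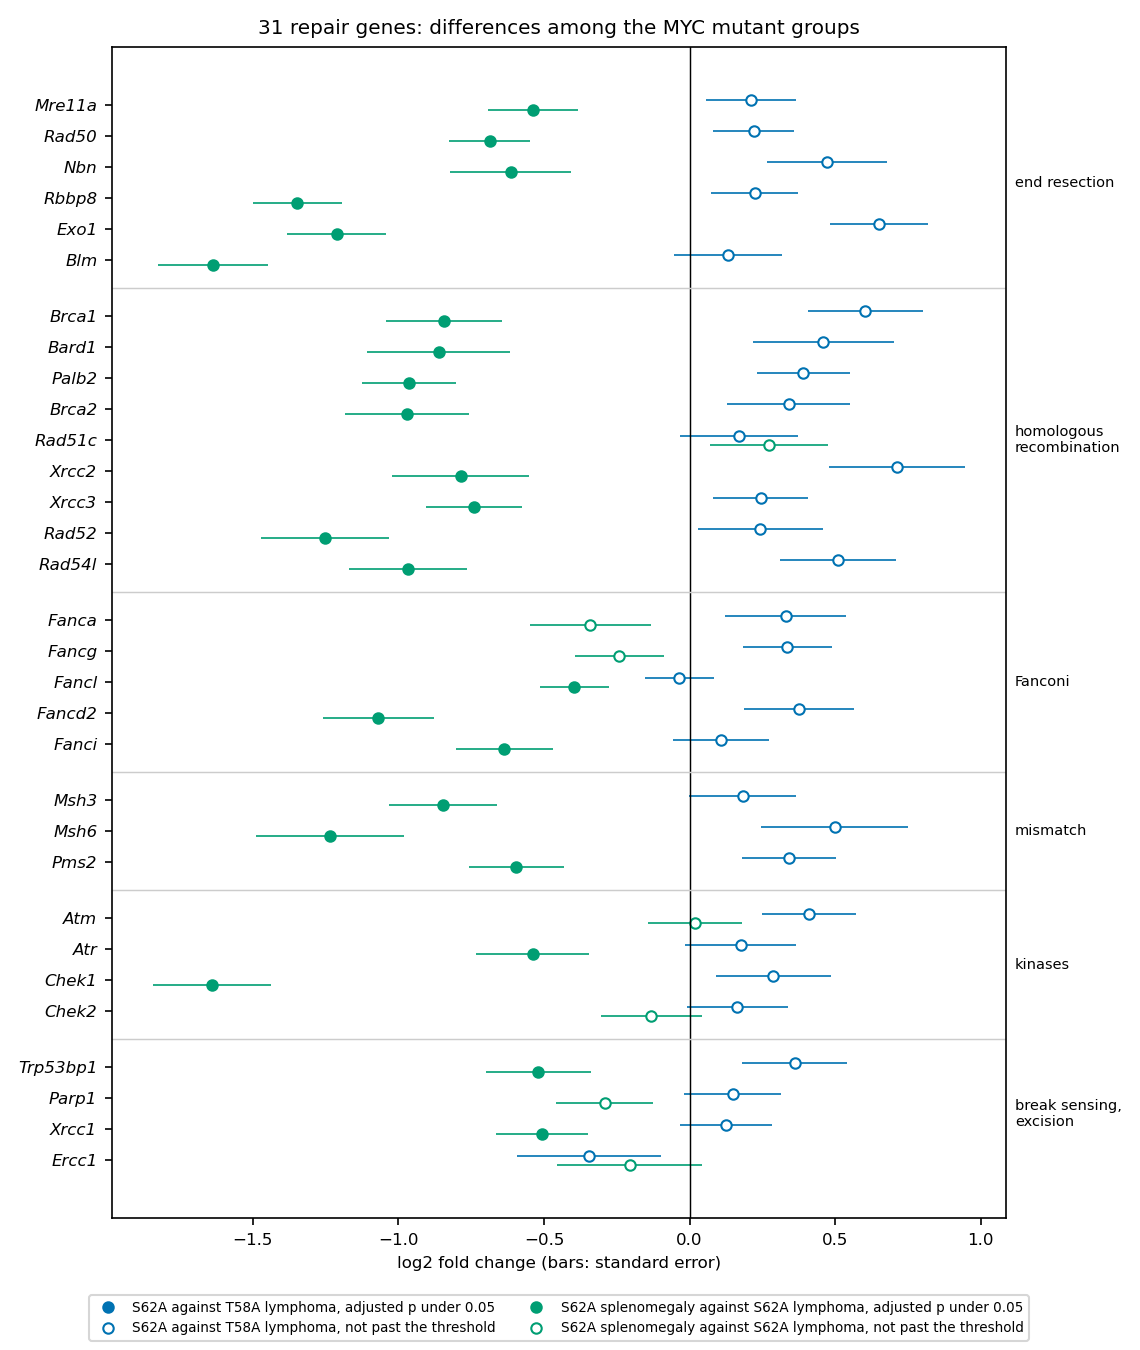
Log2 fold change (x axis, bars: standard error) of each of the 31 genes for S62A against T58A lymphomas and for splenomegaly tissue against S62A lymphomas. Filled points passed the adjusted p threshold of 0.05: none for S62A against T58A lymphomas, and 24 for splenomegaly tissue against S62A lymphomas, all left of 0.

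The fall in splenomegaly tissue went with other measured differences. The summed CPM of the 31 genes was 1161 to 1436 in splenomegaly tissue, below 1612 to 1916 in T58A lymphomas, 2017 to 2250 in S62A lymphomas and 1665 to 1697 in controls. Proliferation genes summed to 2828 to 3764 CPM in splenomegaly tissue and 5744 to 6329 in controls, and 24 of 25 were called lower, such as Mcm7, a subunit of the replication helicase, at −1.17 ± 0.11 (adjusted p = 1.56e-05). Macrophage markers summed to 4205 to 7847 CPM in splenomegaly tissue and 593 to 696 in controls. B cell markers were higher and thymocyte markers lower there, as given above, and the part of all these in the fall of the repair genes was not tested. Splenomegaly library 1 had the lowest level of the 3 for 22 of 31 genes, the highest macrophage sum, 7847 CPM, and the lowest proliferation sum, 2828 CPM. Without it, 7 members were called lower against control, where the full set gave 13, and the share of all genes lower was 21.8% in place of 26.3%. Against S62A lymphomas 18 members were called lower, where the full set gave 24, and the share of all genes was 22.9% in place of 28.6%.

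In the lymphomas most proliferation genes were not called. T58A lymphomas had 1 of 25 higher and 5 lower against control, beside 18.8% and 17.4% of all genes, and S62A lymphomas 3 higher and 3 lower, beside 21.9% and 22.2%. The sums were 4977 to 5267 CPM in T58A lymphomas, 4829 to 7027 in S62A lymphomas and 5744 to 6329 in controls. In T58A lymphomas 23 of the 25 values were negative, with a median of −0.33. Without overlap 13 genes were lower and 1 higher, beside 31.2% and 28.8% of all genes. In S62A lymphomas 16 were negative, with a median of −0.06. The 1 gene called higher in T58A lymphomas was Ccnb1. Ccnb1, the mitotic cyclin B1, rose by 1.87 ± 0.13 in T58A lymphomas (adjusted p = 6.34e-06) and 1.96 ± 0.14 in S62A lymphomas (adjusted p = 3.99e-06). Ccnb2, the related cyclin B2, fell by 0.70 ± 0.17 in T58A lymphomas (adjusted p = 0.00906).

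The differences of the repair genes in the lymphomas also went with markers of other cells. Macrophage markers summed to 1748 to 2529 CPM in T58A lymphomas, 1489 to 2153 in S62A lymphomas and 593 to 696 in controls. Of 7 such markers, 6 were called higher in each lymphoma, beside 18.8% of all genes in T58A and 21.9% in S62A lymphomas. Pan T cell markers summed to 1103 to 1382 CPM in T58A lymphomas, 842 to 1512 in S62A lymphomas and 5267 to 5459.6 in controls, with 6 of 8 called lower in T58A and 7 of 8 in S62A lymphomas. Granulocyte markers summed to 54.1 to 159 CPM in T58A lymphomas, 1.72 to 5.73 in S62A lymphomas and 101 to 171 in controls. Here 1 of 6 was called lower in T58A and 6 of 6 in S62A lymphomas, beside the same 17.4% and 22.2%. Ly6g and Elane, which mark granulocytes, had 0 reads in all S62A lymphomas, as did Ptcra, which marks double-positive thymocytes, in all T58A lymphomas. The part of these in the levels of the repair genes was not tested.

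**Figure D5:**
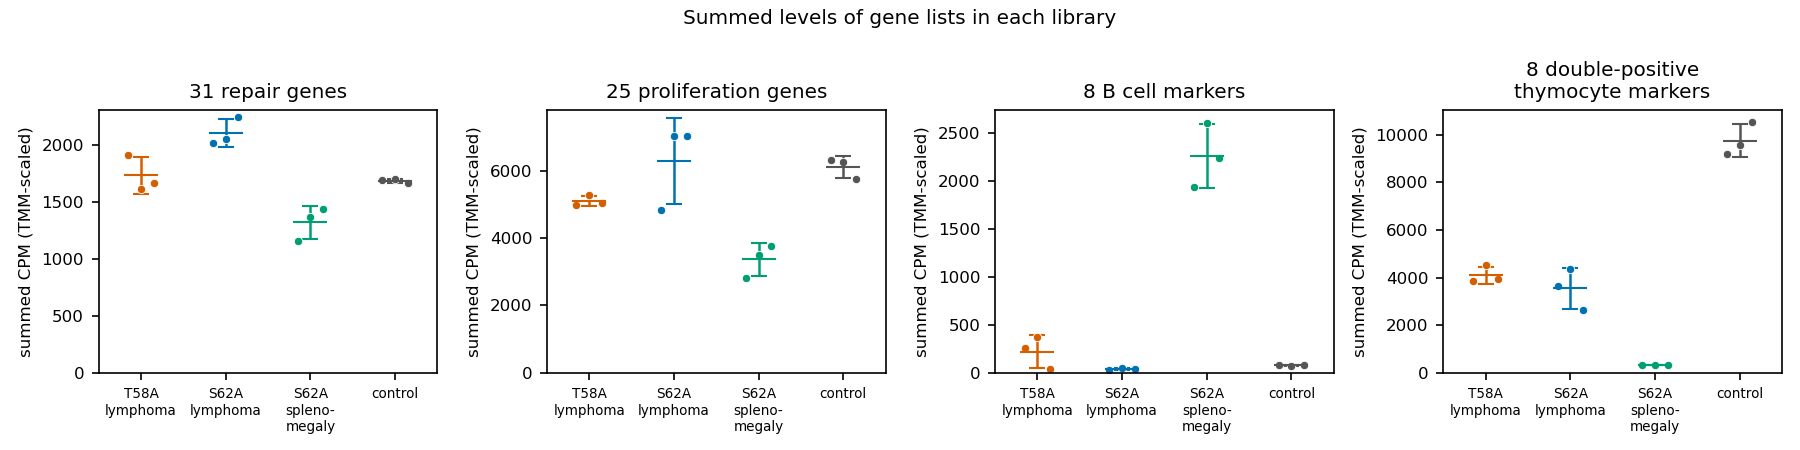
Summed TMM-scaled CPM of gene lists in each library, by group, with the mean (line) and SD (bar) of 3 libraries. The 31 repair genes and the proliferation genes are lowest in splenomegaly tissue, where the B cell markers are highest, and the double-positive thymocyte markers are highest in controls.

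Among the libraries of title letter H, which leaves control 3 as the only control, no member was called by edgeR's quasi-likelihood test in T58A lymphomas against control, and 2.6% of all genes were. At an unadjusted p under 0.05 there were 3 members, where 24.1% of all genes stood there. In that fit the lone control is taken to vary like the lymphomas. There the log2 difference was 0.92 for Parp1 (adjusted p = 0.196), 0.995 for Blm (adjusted p = 0.0945), −0.98 for Rad51c (adjusted p = 0.229) and −0.80 for Msh6 (adjusted p = 0.16), beside 0.93, 0.84, −0.86 and −0.80 from all libraries.

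Of other genes of these pathways, 93 were listed, 92 were in the files and 91 were tested. T58A lymphomas had 16 higher and 18 lower, S62A lymphomas 26 and 11, and splenomegaly tissue 5 and 35, with medians of 0.05, 0.22 and −0.30. Of all genes, 18.8% were called higher and 17.4% lower in T58A lymphomas, and 21.9% and 22.2% in S62A lymphomas. In splenomegaly tissue the shares were 22.9% and 26.3%. Splenomegaly tissue against S62A lymphomas had 2 higher and 49 lower, beside 25.6% and 28.6% of all genes. S62A against T58A lymphomas had 1 higher and 0 lower, beside 0.859% and 2.29%. The 1 gene was Topbp1, which activates ATR, at 0.63 ± 0.13 (adjusted p = 0.0307). Apex1, the endonuclease of base excision repair, rose by 1.10 ± 0.12 in T58A lymphomas (adjusted p = 7.08e-05) and 1.31 ± 0.12 in S62A lymphomas (adjusted p = 1.78e-05). Sfr1, a recombination cofactor, rose by 0.77 ± 0.12 in T58A lymphomas (adjusted p = 0.000676), 0.83 ± 0.12 in S62A lymphomas (adjusted p = 0.000314) and 0.53 ± 0.12 in splenomegaly tissue (adjusted p = 0.00372). Ddb2, a sensor of ultraviolet damage, fell by 1.59 ± 0.20 in T58A lymphomas (adjusted p = 0.000214) and differed by −2.04 ± 0.21 in S62A lymphomas (adjusted p = 3.63e-05).

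Among other Fanconi genes, Ube2t, the conjugating enzyme that works with FANCL, differed by −1.87 ± 0.22 in splenomegaly tissue (adjusted p = 5.74e-05). H2afx, the histone that ATM marks beside breaks, differed by −1.32 ± 0.26 in S62A lymphomas (adjusted p = 0.00198) and −2.13 ± 0.26 in splenomegaly tissue (adjusted p = 8.4e-05). Rif1, which acts with 53BP1, rose by 1.75 ± 0.25 in S62A lymphomas (adjusted p = 0.000306). Of 20 targets of p53, T58A lymphomas had 6 higher and 4 lower, S62A lymphomas 5 and 4, and splenomegaly tissue 7 and 4. The shares of all genes called in either direction were 36.2%, 44.1% and 49.2% in that order. Cdkn1a, the inhibitor p21, rose by 3.66 ± 0.41 in T58A lymphomas (adjusted p = 9.37e-05). Its level was 224 to 499 CPM in T58A lymphomas, 176 to 466 in S62A lymphomas, 36.1 to 46.96 in splenomegaly tissue and 27.6 to 35.9 in controls, so both lymphomas were above the controls.

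The spread between libraries of a group was narrowest in controls, where controls 1 and 2 were the closest pair of libraries of any group. The median coefficient of variation of the 31 levels was 12.1% in T58A lymphomas, 16.8% in S62A lymphomas, 15.9% in splenomegaly tissue and 5.18% in controls. The widest single spread was that of Msh6 in S62A lymphomas, 41.7%. On mm9, the build of the files, 10 members overlap a gene on the other strand, most of all Xrcc3 with Klc1 over 4653 bases and Trp53bp1 with Tubgcp4 over 3936. The strand setting of the counting is not given in the sources used here, so the levels of Xrcc3, Trp53bp1, Fanca, Fanci, Ercc1, Fancl, Atr, Msh3, Rad54l and Msh6 could include reads of the neighbour.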

How the data were processed

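The authors deposited 2 kinds of value for every RefSeq transcript and library: raw read counts in whole numbers, and FPKM, the reads scaled to transcript length and library depth. Bowtie 1.0.0, bcl2fastq 2.20.0.422, DESeq2 and the build mm9 are named in the submitters' processing notes. How reads were counted, with which strand setting and with what treatment of several matches, is not given in the sources used here. Per the labels' protocols, poly(A) RNA was made into libraries with a directional kit.

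Of 36141 transcripts, the one with the most reads was kept for each of 24478 symbols. These counts went into edgeR 4.0.16 under R 4.3.3: filterByExpr by group (minimum count 10) kept 15606 genes, libraries were scaled by TMM, and 1 quasi-likelihood model with group as its only term was fitted to all 12 libraries. Benjamini-Hochberg adjustment ran over all genes tested, and the threshold was 0.05. Errors are SE for log2 fold changes and SD for CPM. The fit was tested on simulated data. Levels of 1 gene between groups are TMM-scaled CPM, and levels between genes are FPKM.

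Groups come from the labels, and the numbers of libraries only name them, in order of deposit. The members, gene lists, tests and alternatives were chosen with earlier results of these data known. Values in each library are given, per comparison and role group, for the risen and the fallen member with the smallest adjusted p, for members called in opposite directions against control, and for members called alike in all 3 comparisons. Of the other lists, the risen and the fallen gene with the smallest adjusted p may be named. Brca1, Bard1, Myc, Rag2, Cd4, Cd3d and Elane were added after their values were seen. The results of some listed genes that are not members are not reported here. Alternatives were another scaling, DESeq2 1.42.0, no filter, the mean of the transcripts, fits on 2 groups alone, libraries of title letter H alone, and leaving out each library. Promoters were matched by symbol to a RefSeq table of GRCm38.p6, where 25 of the 31 genes had a window and 6 did not.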

Additional observations from a re-analysis of the deposited data

Results flagged for a closer look

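For 4 genes the effect against control differed between the S62A groups, with a call upward in S62A lymphomas and downward in splenomegaly tissue. The difference itself was tested as splenomegaly tissue against S62A lymphomas, in which the shared controls cancel, with edgeR's quasi-likelihood test. It was −1.64 for Blm (adjusted p = 5.08e-05) and −1.64 for Chek1 (adjusted p = 7.72e-05) on the log2 scale. It was −1.35 for Rbbp8 (adjusted p = 4.41e-05) and −1.21 for Exo1 (adjusted p = 0.000172). For Blm, Chek1 and Exo1 at least 1 of the calls against control was lost on leaving out a single library, as given above, and for Rbbp8 neither was. All 4 differences between the S62A groups kept their call under every alternative run.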

How the results depend on the processing

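No value that passed the threshold changed direction under any alternative run, and 46 values of members that were not called changed sign. T58A lymphomas against control had 5 genes higher, which became 3 with no filter on low counts, 0 with title letter H alone and 2 to 5 on leaving out 1 library, and 4 lower, which became 0 with letter H alone and 1 to 4 on leaving out 1 library. S62A lymphomas against control had 9 to 13 higher and 0 to 2 lower on leaving out 1 library, where the full set gave 14 and 1. Splenomegaly tissue against control had 1 to 2 higher and 7 to 13 lower on leaving out 1 library, where the full set gave 1 and 13, with 16 lower under library size scaling and 15 in the fit on these groups alone. S62A against T58A lymphomas had 2 higher with DESeq2 and 0 to 3 on leaving out 1 library, where the full set gave 0. Splenomegaly tissue against S62A lymphomas had 15 lower in the fit on these groups alone and 18 to 22 on leaving out 1 library, where the full set gave 24. Apart from the values already given, the cause of these changes was not tested, and fits without a library or on 2 groups alone rest on fewer libraries. Calls kept under every alternative were 8 of 14 higher in S62A lymphomas, 7 of 13 lower and 1 of 1 higher in splenomegaly tissue, 14 of 24 lower between the S62A groups, and 0 of 9 in T58A lymphomas, where Blm, Parp1 and Rad51c were lost under letter H alone. Scaling by library size alone moved the median of all genes in splenomegaly tissue against control to −0.19, where TMM gave −0.08. It also moved the split of all calls in S62A against T58A lymphomas to 86 higher and 456 lower, where TMM gave 134 and 358. Those counts were 617 and 1137 with DESeq2, 33 and 106 without T58A lymphoma 2, and 0 and 0 in the fit on these groups alone. No paired analysis was possible because the labels give no replicate numbers that the groups share.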
